A study of Mus musculus with 2 samples.

Results

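The transcripts of interleukin-10 (IL-10) signalling and of interleukin-35 (IL-35) were examined in mouse T cells after exposure to cells of the retinal pigment epithelium (RPE), which lies under the photoreceptors, and in control T cells. The members were Il10, its receptor chains Il10ra and Il10rb, and the IL-35 subunit genes Ebi3 and Il12a, taken as every probe set that the platform annotation assigns to exactly 1 of these symbols. They numbered 5 genes on 8 probe sets, of 18193 genes on 34945 such probe sets. The series held 2 Affymetrix arrays, 1 for RPE-exposed T cells and 1 for control T cells titled as CD4 cells, both labelled as from male mice 6 weeks old on a C57 BL/6 background. No genetic change, stimulus, length of culture or number of pooled mice is given in the sources used here. The study's question was how this ocular epithelium alters T cells, in particular the helper cells that make interleukin-17.

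IL-10 is an anti-inflammatory cytokine made by several helper T-cell subsets, regulatory T cells, B cells and macrophages. It signals through a complex of IL-10RA, the ligand-binding chain, and IL-10RB, a chain shared with other cytokines of the family, and the receptor acts through the kinases JAK1 and TYK2 and mainly the transcription factor STAT3. IL-35 is a suppressive cytokine described in regulatory T cells and B cells, a heterodimer of EBI3 and the p35 chain encoded by Il12a. Each of its chains has another partner, since EBI3 with p28 forms IL-27 and p35 with p40 forms IL-12.

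Each group had 1 array, so no spread between samples could be measured, no test was run, and precision is limited by the number of arrays. Each deposited value is a linear intensity per probe set, called signal here. Both arrays had a mean signal of 100 after the lowest and highest 2% of probe sets were left out. Signals under the array's median, 16 for RPE-exposed and 15.9 for control T cells, were raised to that value, called the floor. The labelled cell type was checked against its markers. All 8 T-cell markers analysed lay above the floor on both arrays, with Cd3d, a T-cell receptor complex chain, at 3505.9 in RPE-exposed and 3073.4 in control T cells, and Cd2, an adhesion receptor, at 2212.2 and 2329.9. The tissue field of the exposed sample names cultured RPE, but 9 of 11 RPE markers were under the floor on both arrays. The other 2, which were also the brightest in control cells, passed it on 1 array each. Mitf, the pigment-cell transcription factor, gave 15.2 in RPE-exposed and 17.3 in control T cells, and Pmel, a structural protein of pigment granules, gave 18.3 and 15.2.

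Il10 was higher in RPE-exposed T cells, both IL-35 subunit genes were lower, and the receptor chains differed little. All 5 genes had a probe set above the floor on both arrays. A gene was compared where it passed the floor on either array, which held for 11042 genes. Of the 5 members 1, Il12a, differed by at least 2-fold, against 1.06% of genes compared. It was lower, as were 0.625% of genes, and no member was 2-fold higher, against 0.435% of genes. On the log2 scale, RPE-exposed minus control, 2 of the 5 had a difference above 0, against 48.3% of genes, and 3 had one below 0, against 51.5%. The median of the 5 was -0.02, and that of all genes compared was -0.0092. As a description of size, each difference was also set beside the central 95% of the differences of genes in the same of 20 bins of mean log2 signal, called the like-level range. Outside it lay 3 of the 5, Il10, Ebi3 and Il12a, against 5.2% of 10004 genes that passed the floor on both.

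**Figure D1:**
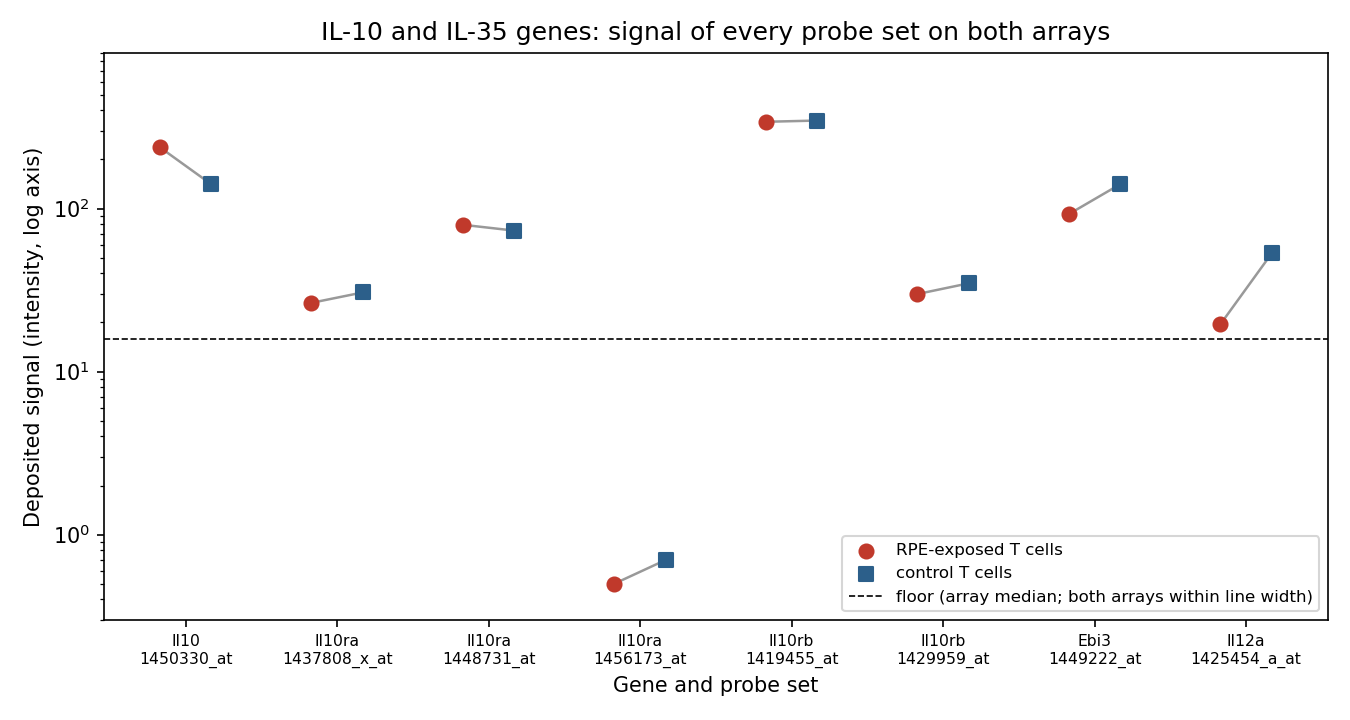
Deposited signal (intensity, log axis) of each of the 8 probe sets, with RPE-exposed T cells (circle, left) joined to control T cells (square, right), 1 array each, and the floor as a dashed line. The Il10 circle is higher than its square (237.3 and 140.6), while the circles of Ebi3 (92.5 and 141.3) and Il12a (19.5 and 53.3) are lower, and 1 probe set of Il10ra is far under the floor on both arrays.

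Il10, on its only probe set, 1450330_at, had a signal of 237.3 in RPE-exposed and 140.6 in control T cells. It was 1.69-fold higher, a log2 difference of 0.76, outside its like-level range of -0.53 to 0.53. Of the 11042 genes compared, 143, or 1.30%, had a difference at least as high, Il10 included. For scale, log2 differences of probe sets of the same gene had a pooled SD of 0.23 at signals of 100 to 500, over 2408 genes. Probe sets of 1 gene share the cells and the arrays and are not replicates.

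The receptor chains were nearly level between the arrays. Il10ra, the ligand-binding chain, had a signal of 79.5 in RPE-exposed and 73.2 in control T cells on its brightest probe set, 1448731_at, a log2 difference of 0.12. Its probe set 1437808_x_at, whose x marks probes that can match other sequences, went the other way at 26.4 and 30.6 (-0.21). The third, 1456173_at, was under the floor on both arrays at 0.5 and 0.7. The 2 probe sets above the floor averaged -0.05 ± 0.23 (SD over probe sets), so the sign for Il10ra is not settled by these arrays. Il10rb, the shared chain, had signals of 340.7 in RPE-exposed and 346.6 in control T cells on 1419455_at (-0.02), and 29.9 and 34.8 on 1429959_at (-0.22). Its probe sets averaged -0.12 ± 0.14 (SD over 2 probe sets). Both genes lay within their like-level ranges, -0.71 to 0.58 for Il10ra and -0.47 to 0.43 for Il10rb.

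Ebi3, the subunit shared by IL-35 and IL-27, had a signal of 92.5 in RPE-exposed and 141.3 in control T cells on its only probe set, 1449222_at. It was 1.53-fold lower, a log2 difference of -0.61, just outside its like-level range of -0.60 to 0.47. Of the genes compared, 381, or 3.45%, had a difference at least as low, Ebi3 included. Il12a, the p35 chain of IL-35 and IL-12, had a signal of 19.5 in RPE-exposed and 53.3 in control T cells on its only probe set, 1425454_a_at. It was 2.73-fold lower, a log2 difference of -1.45 against a like-level range of -0.95 to 0.94, and 16 of the genes compared, Il12a included, had a difference at least as low. The exposed signal of Il12a was close to the floor of 16, and an offset of 16 in place of the floor gave -0.97, under 2-fold. Relative to Il10, the ratio of Il10 to Ebi3 was 2.58-fold higher in RPE-exposed than in control T cells, and that of Il10 to Il12a 4.61-fold higher.

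**Figure D2:**
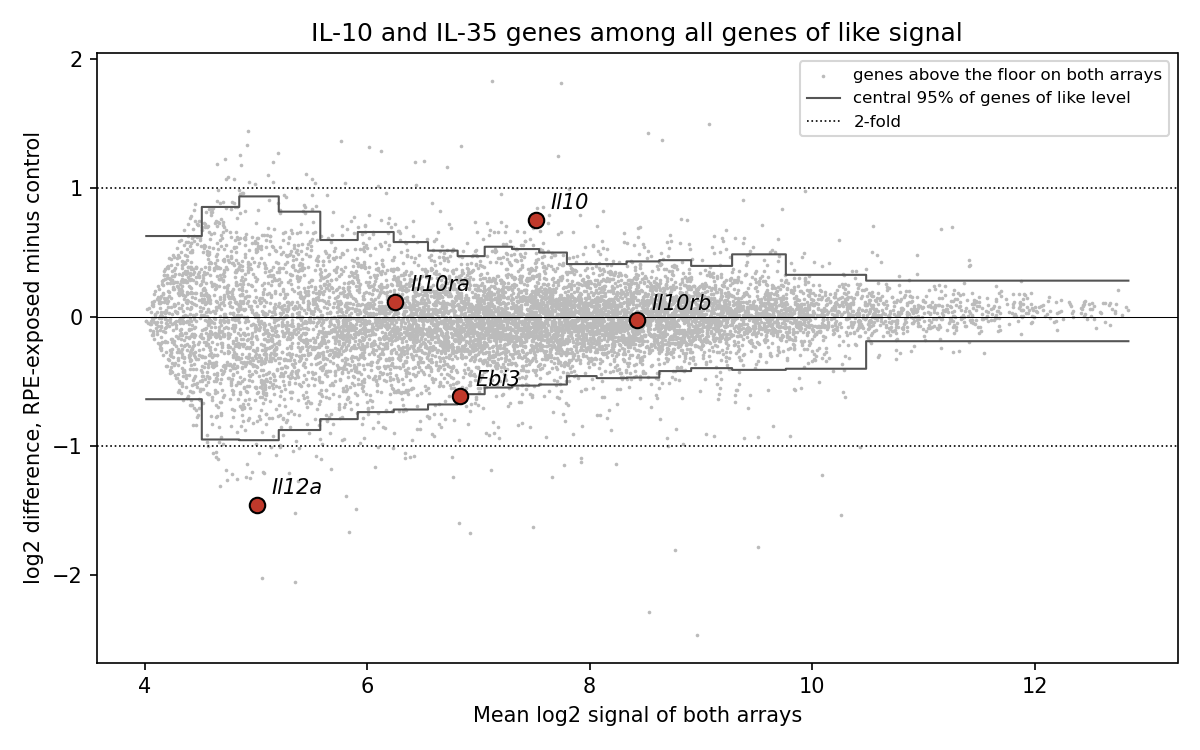
The log2 difference, RPE-exposed minus control, against the mean log2 signal of both arrays for 10004 genes that passed the floor on both (grey), with the like-level range (lines) and 2-fold (dotted). Il10 (0.76) lies above the range, Ebi3 (-0.61) just under it, Il12a (-1.45) well under it and past 2-fold, and Il10ra (0.12) and Il10rb (-0.02) lie inside.

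The promoters of the IL-35 subunit genes are shown because both genes were lower in RPE-exposed T cells, and because NF-kappaB, AP-1 and interferon-regulated factors bind control regions of many cytokine genes. RefSeq sequence was at hand for 2 of the 5 members, Ebi3 with 1 transcript start and Il12a with 2, in build GRCm38.p6, plus strand. The 250 bases before each start are printed 5′ to 3′, with capitals for matches to a loose form of the NF-kappaB motif, GGG and CC with any 5 bases between them.
Ebi3, chr17:55952373-55952622: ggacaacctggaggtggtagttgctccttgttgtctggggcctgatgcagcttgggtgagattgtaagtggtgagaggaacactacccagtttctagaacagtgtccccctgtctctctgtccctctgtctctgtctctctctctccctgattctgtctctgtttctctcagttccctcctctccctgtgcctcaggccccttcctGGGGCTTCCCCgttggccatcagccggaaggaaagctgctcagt
Il12a first start, chr3:68690394-68690643: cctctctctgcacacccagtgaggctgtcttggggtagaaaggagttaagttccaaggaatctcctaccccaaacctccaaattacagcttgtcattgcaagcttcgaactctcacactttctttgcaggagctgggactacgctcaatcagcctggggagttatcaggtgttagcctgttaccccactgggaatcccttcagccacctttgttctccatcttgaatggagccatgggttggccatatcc
Il12a second start, chr3:68691174-68691423: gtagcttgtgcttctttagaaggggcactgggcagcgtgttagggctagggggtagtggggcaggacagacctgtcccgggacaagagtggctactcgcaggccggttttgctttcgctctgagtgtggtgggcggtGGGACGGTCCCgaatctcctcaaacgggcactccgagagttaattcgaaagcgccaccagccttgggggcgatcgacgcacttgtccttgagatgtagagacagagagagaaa
Searched on both strands, the motif matched at 44 and 43 bases before the Ebi3 start, where the 4 matches overlap, and at 113 and 112 bases before the second Il12a start, where 2 overlap. The first Il12a window held none. Such a match occurs in 45.8% of 32851 mouse promoter windows of this length. The AP-1 motif TGANTCA, found in 6.75% of windows, and an interferon-response motif, GAAA repeated after any 2 bases and found in 2.98%, were in none of the 3 windows. A match describes the letters and is not a bound site, and no match says only that these letters are not in the window.

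The Il12b signal, for the p40 partner of p35, was under the floor on both arrays, and the receptor chains for IL-35 differed little. Of 8 listed IL-12 family genes, 6 were analysed and 4 lay above the floor on both arrays. None of these 4 was 2-fold different. Of them 1 was higher and 3 lower, against 48.3% and 51.5% of all genes compared. Their median log2 difference was -0.04, beside -0.0092 for all genes compared. Il12b, the p40 chain of IL-12, gave 10.7 in RPE-exposed and 11.7 in control T cells, and Il23a, the p19 chain of IL-23, gave 11.3 and 10, all under the floor. Il12rb2, a chain of the IL-12 and IL-35 receptors, had signals of 266.1 in RPE-exposed and 272.7 in control T cells (-0.04). Il6st, which encodes the gp130 chain used by IL-35, IL-27 and IL-6, had 162.6 and 167.1 (-0.04), although its 4 probe sets disagreed in sign. Il12rb1, the chain shared by the IL-12 and IL-23 receptors, had 283.2 in RPE-exposed and 257.3 in control T cells (0.14). The lowest difference of this group was that of Il27ra, the specific chain of the IL-27 receptor, at 148.2 in RPE-exposed and 192.6 in control T cells (-0.38), inside its like-level range of -0.53 to 0.53. Il27, which encodes p28, and Il23r are not analysed here.

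Kinases and transcription factors downstream of these receptors were mostly level. Of the 5 JAK-STAT genes compared, 3 were higher and 2 lower, against 48.3% and 51.5% of all genes compared. None was 2-fold different, and their median log2 difference was 0.05. Jak1, a kinase of the IL-10 receptor, gave 1223.6 in RPE-exposed and 1181.9 in control T cells (0.05), and Tyk2, its partner kinase there, 123.5 and 119.7 (0.05). Stat3, the main factor downstream of IL-10, gave 892.7 in RPE-exposed and 1056.7 in control T cells (-0.24), but its 4 probe sets disagreed in sign and averaged -0.10 ± 0.13 (SD over probe sets). Stat4, which IL-12 and IL-35 activate, gave 1278.0 and 1188.2 (0.11). Jak2, a kinase of the IL-12 receptor, was the exception at 529.3 in RPE-exposed and 780.4 in control T cells. Its log2 difference was -0.56 against a like-level range of -0.41 to 0.49. The 2 Jak2 probe sets averaged -0.52 ± 0.05 (SD over probe sets).

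Of 12 factors known to act on Il10 transcription in T cells, 5 were higher and 7 lower in RPE-exposed T cells. This was near the shares of all genes compared, 48.3% higher and 51.5% lower. Their median log2 difference was -0.15, beside -0.0092 for all genes compared. At least 2-fold lower were 2 of the 12, against 0.625% of genes compared, and none was 2-fold higher, against 0.435%. The list was not split into factors that raise and factors that lower Il10, so its counts and median give no direction for Il10. Outside their like-level ranges lay 6 of the 12, against 5.2% of genes that passed the floor on both arrays. All 6 were lower: Ahr, Egr2 and, named after their values were seen, Gata3 (-0.80), Irf4 (-0.58), Nfil3 (-0.48) and Ets1 (-0.26, with probe sets that disagreed in sign). The 2-fold lower ones were Ahr, a ligand-activated factor that promotes Il10 together with Maf, at 71.2 in RPE-exposed and 168.1 in control T cells (-1.24, with 2 probe sets at -1.11 ± 0.18 SD), and Egr2, an activation-induced zinc-finger factor, at 166.6 and 353.9 (-1.09, with 2 probe sets at -0.90 ± 0.27 SD). Both were under 2-fold in 1 of 8 alternatives, Ahr at -0.89 under a 75th-percentile floor and Egr2 at -0.90 with probe sets averaged. Prdm1, which encodes Blimp-1, a factor needed for Il10 in several effector subsets, had the highest difference of the list, with signals of 249.8 in RPE-exposed and 188.4 in control T cells (0.41). Maf, named here after its values were seen, gave 199.7 in RPE-exposed and 155.5 in control T cells (0.36), with 5 probe sets above the floor at 0.33 ± 0.06 (SD). Prdm1 and Maf lay inside their like-level ranges. In the pathway lists that follow or precede, 4 of 8 Foxp3 regulatory T-cell genes above the floor on both arrays lay outside. So did 3 of 10 IL-10 response genes, with Nfil3, which is in both lists, again among them, and no more than 1 gene in any other list.

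Genes that IL-10 induces, known mainly from macrophages, were lower on balance in RPE-exposed T cells. Of 10 such genes, 3 were higher and 7 lower, against 48.3% and 51.5% of all genes compared. None differed by 2-fold on the probe set used. The median log2 difference was -0.33, beside -0.0092 for all genes compared. Il4ra, the IL-4 receptor chain, had signals of 324.7 in RPE-exposed and 592.8 in control T cells (-0.87, with 2 probe sets at -0.98 ± 0.16 SD, the lower past 2-fold at -1.09). Sbno2 counted as higher on a probe set with the suffix x (0.07), but its probe sets above the floor ran from -0.84 to 0.07. Il1rn, which encodes the IL-1 receptor antagonist, had 24.5 and 45.3 (-0.89, with 3 probe sets at -0.49 ± 0.40 SD), inside its like-level range. Socs3, a feedback inhibitor induced through STAT3 and named here after its values were seen, had 600.1 in RPE-exposed and 1077.4 in control T cells (-0.84), and its 3 probe sets agreed at -0.83 ± 0.02 (SD). The highest of the list was Hmox1, which encodes heme oxygenase 1, at 32.2 in RPE-exposed and 25 in control T cells (0.37, but 0.23 with an offset of 16). Other cytokines also induce these genes, so the list is not specific to IL-10. Macrophage and dendritic-cell markers (median -0.47) and B-cell markers (median -0.46) were mostly lower in the same sample, as detailed with the marker lists. Their part in the lower values of this list was not tested.

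**Figure D3:**
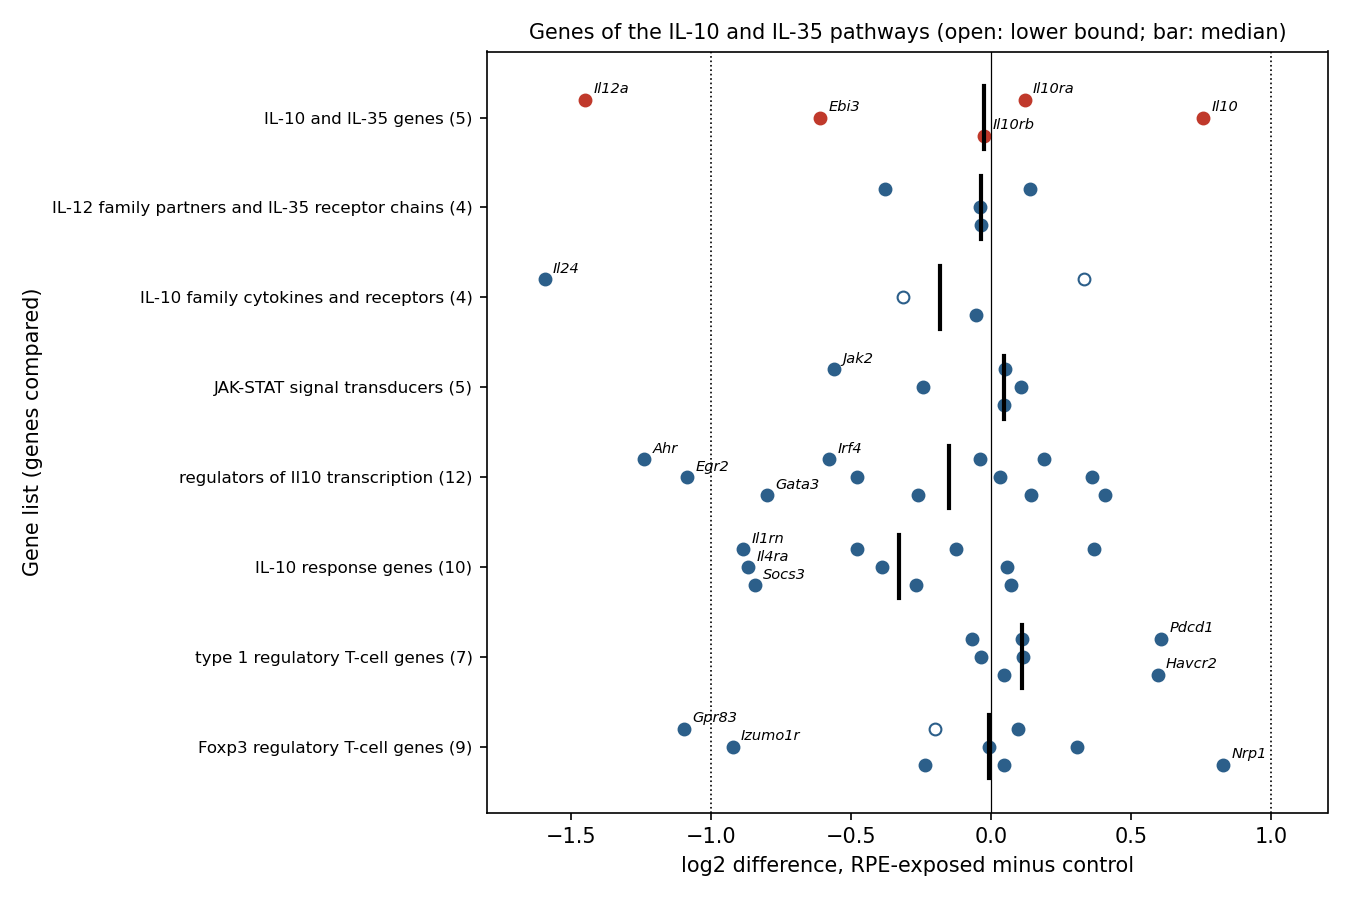
The log2 difference, RPE-exposed minus control, of each gene above the floor on at least 1 array, for the 5 members (top row) and the 7 pathway lists, with open points for lower bounds, bars for medians and dotted lines at 2-fold. The members spread from -1.45 to 0.76, and the median is lowest for the IL-10 response genes at -0.33.

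Among the other genes of the IL-10 cytokine family, 7 of 11 were analysed and 4 compared. Il24, an IL-10 family cytokine, was 3.02-fold lower at 65.2 in RPE-exposed and 196.9 in control T cells (-1.59), the opposite direction to Il10. The other 3 were not counted as 2-fold different, but 2 of them have only a lower bound and may differ by more. Il20rb, a receptor chain for IL-20 and IL-24, was at 20 in RPE-exposed cells and under the floor at 12.9 in control cells, at least 1.26-fold higher. Ifnlr1, the specific receptor chain for lambda interferons, was under the floor at 10.1 in RPE-exposed cells and at 19.9 in control cells, at least 1.24-fold lower, and gave -0.98 with no floor. The list's median, bounds included, was -0.18. Over 8 alternatives it ran from -1.12, under a 75th-percentile floor that left 1 gene, to -0.03 with an offset of 16. Il19, Il22, Ifnl2 and Ifnl3 are not analysed here.

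Genes of the T-cell types known to make these cytokines showed no common direction. Of 7 genes of type 1 regulatory T cells, the Foxp3-negative producers of IL-10, 5 were higher and 2 lower. Of all genes compared, 48.3% were higher and 51.5% lower. None of the 7 was 2-fold different, and their median was 0.11. The inhibitory receptor gene Pdcd1 gave 121.5 in RPE-exposed and 79.8 in control T cells (0.61, but 0.38 under a 75th-percentile floor), Havcr2, which encodes TIM-3, 24.3 and 16.1 (0.59, but 0.33 with an offset of 16), and Lag3, another inhibitory receptor, 587.5 and 615.8 (-0.07). Of 9 genes of Foxp3 regulatory T cells, a source of IL-35, 4 were higher and 5 lower, with a median of -0.0079. At least 2-fold different was 1 of the 9, against 1.06% of genes compared. That gene was Gpr83, an orphan receptor, at 32.8 in RPE-exposed and 70.2 in control T cells (-1.10, but -0.82 with an offset of 16), and Nrp1, a semaphorin receptor, had the highest difference at 49.5 and 27.9 (0.83). With probe sets averaged, Nrp1 gave 0.34, under Il2ra, the IL-2 receptor alpha chain, at 0.44. Foxp3 itself was at 15.8 in RPE-exposed cells, under the floor, and at 18.4 in control cells. Ctla4, an inhibitory receptor gene in both lists, was bright at 1542 in RPE-exposed and 1493.3 in control T cells. These lists therefore do not measure regulatory T cells alone.

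B cells, macrophages and dendritic cells also make IL-10, EBI3 or p35, and most of their markers compared were lower in RPE-exposed T cells. Beside the counts that follow, 51.5% of all genes compared were lower. Of 8 B-cell markers compared, 7 were lower, with a median of -0.46 and a summed signal over 9 markers of 1246.6 in RPE-exposed and 1785.2 in control T cells. Ms4a1, the gene of CD20, gave 443.6 and 618.5, and Blnk, a B-cell adaptor, 210.4 and 355.9. All 4 plasma-cell markers were lower, with a median of -0.38 and sums of 3294.7 and 4037.4. Most of these sums is Xbp1, a secretory-cell factor that T cells also express, at 2709.2 and 3278.4, and its 4 probe sets disagreed in sign, from -0.37 to 0.25. Mzb1, an endoplasmic reticulum protein of plasma and B cells, gave 331.9 and 463.1. Of 13 macrophage and dendritic-cell markers compared, 11 were lower, with a median of -0.47 and sums over 15 markers of 2770.4 in RPE-exposed and 3750.6 in control T cells. H2-Aa, an MHC class II chain, gave 1080.8 and 1437.6, and Ctss, a lysosomal protease, 992.9 and 1256.0. Most of these sums is H2-Aa and Ctss, which B cells also express, so the list does not set macrophages and dendritic cells apart from B cells. Lyz2 (19.5 and 29.4) and Cd14 (16.1 and 21.7) were close to the floor in RPE-exposed cells, and Itgam and Fcgr3 were under it on both arrays. The 2 higher markers were Csf1r, at 31.4 and 29.1, and Adgre1, at 17.8 and, under the floor, 15.2. All 3 natural killer cell markers analysed were lower, with sums of 82.4 and 122.1, and the brightest were Klre1 at 38.8 and 68.7 and Klra8 at 25.8 and 31.9, both lectin-like receptors. T-cell markers had a median of 0.0093 and sums of 12423.6 in RPE-exposed and 11792.4 in control T cells. No marker of these lists had a signal of 0. In such bulk samples fewer cells of a type and less RNA per cell cannot be told apart, and the part of these markers in the lower Ebi3 and Il12a signals was not tested.

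With 1 array per group, the pattern of a gene is a single difference, so likeness was measured as the gap between log2 differences among the 499 other genes in the same bin of mean signal. Nearest to Il10 were Fech (0.69), Lancl2 (0.67) and Cux1 (0.85), with gaps of 0.07, 0.09 and 0.09. Nearest to Ebi3 were Plod3 (-0.62), Zfp346 (-0.64) and Rnf11 (-0.58), with gaps of 0.0046, 0.03 and 0.03.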

How the data were processed

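Total RNA of 1 sample per group was hybridised as biotin-labelled cRNA, per the labels' protocols. The deposited values are linear intensity per probe set, already on a common scale as their equal trimmed means show. No source used here gives the summarization software or detection calls. Both columns held 45101 probe sets, 64 of them controls. The platform annotation named 1 gene for 34945, several for 932 and none for 9160. From the deposited intensities, log2 values (RPE-exposed minus control) were computed in Python 3.11.15 (pandas 2.3.3, numpy 2.4.6), and figures in matplotlib 3.10.9. For each gene, the probe set brightest on average after the floor was used. On both arrays 10004 genes passed the floor, on 1 array 1038, where the difference is a lower bound, and on neither 7151, of 18193 in all. The steps were also run on simulated data. The shifts set there were larger than the differences of Il10 and Ebi3 and lay in genes brighter than Il12a. The simulated noise was the spread between probe sets of 1 gene, so the run does not address spread between samples.

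The members and lists were chosen with earlier results of these data known. Named by rule were all members, the IL-12 family and JAK-STAT lists, and in other pathway lists the 2-fold genes, or else the 2 largest differences, plus 1 of opposite sign. For markers these were the 2 brightest in control cells, and for Il10 and Ebi3 the 3 nearest genes. Added after their values were seen were Socs3, Maf, Gata3, Irf4, Nfil3, Ets1, Il20rb, Ifnlr1, Il2ra, Foxp3, Ctla4 and Sbno2. So were the macrophage and dendritic-cell markers Lyz2, Cd14, Itgam, Fcgr3, Csf1r and Adgre1. The 8 alternatives changed the floor, offset, scaling or probe set choice.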

Additional observations from a re-analysis of the deposited data

How the results depend on the processing

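Il10 stayed higher in all 8 alternatives (0.69 to 0.78) and Ebi3 lower in all 8 (-0.61 to -0.54). For both genes only the offset, median centring and quantile normalization could change the value. Each has 1 probe set, with none of the suffixes x, s or a and above every floor tried, so the other settings could not move it. Il12a stayed lower in the 6 that gave a value (-1.45 to -0.97), and of these again only the offset and the scalings could change it. With an offset of 16 it gave -0.97. It had no value under a 75th-percentile floor, which it missed on both arrays, or once probe sets with the suffix x, s or a were left out, its only one being such. The count of members 2-fold different was therefore 0 with the offset, with the 75th-percentile floor and with those suffixes left out, and 1 in the other 5. Il10ra reversed to -0.028 with all probe sets averaged, and Il10rb stayed between -0.12 and -0.0034. The median of the Foxp3 regulatory T-cell genes reversed to 0.0036 with median centring, 0.0039 with quantile normalization, 0.046 with probe sets averaged, and 0.071 with those suffixes left out. The median of the IL-10 family genes was -1.12 under a 75th-percentile floor, where 1 gene was left, -0.07 under a 25th-percentile floor, -0.06 both with no floor and with those suffixes left out, and -0.03 with the offset. The other pathway medians kept their sign in all 8. Over all genes, 2-fold calls were 48 higher and 69 lower, against 683 and 611 under a 25th-percentile floor, 6 and 16 under a 75th-percentile one, 1587 and 1443 with no floor, 34 and 38 with the offset, and 23 and 54 with averaged probe sets. Median centring gave 54 and 63, and quantile normalization 57 and 62. No paired analysis was possible because each group has 1 array. Signal near the floor limits Il12a most.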
